A study of Mus musculus with 8 samples.

Results

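Interstitial progenitors of white fat, marked by the surface peptidase Dpp4, were followed through 8 marker genes, Dpp4, Pi16, Cd55, Anxa3, Dact2, Efhd1, Smpd3 and Uchl1. The 8 were taken by symbol from a table of 17967 gene symbols, and all 8 were found there and passed the filter on low counts. The values come from bulk RNA sequencing of adipose-derived stem cells of male C57BL/6J wild type mice on a chow diet, stained with fluorescent antibodies after collagenase digestion and red cell lysis. The tissues analysed here were subcutaneous (SWAT), epididymal (EWAT) and perirenal (NWAT) fat, with 2 libraries each. The mesenteric samples of the series were not analysed here. The sources used here do not name the antigens stained, how cells were gated or the age of the mice. Nor do they say that a depot's 2 libraries stem from different mice, so every p-value rests on the spread between libraries alone, and that spread may be technical.

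In mouse subcutaneous fat, Dpp4-positive cells lie in the fibrous reticular interstitium that surrounds the fat lobules, and they can give rise to committed, Icam1-positive preadipocytes as well as to a separate F3-positive (Cd142) population. They are known for high proliferation and for resistance to adipogenic cues until they leave that state. Dpp4 itself trims the N-terminal dipeptide from chemokines and peptide hormones, and Pi16, a CAP-domain protein of unsettled function in fibroblasts, marks a similar population in many other organs.

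Each library held 20026413 to 20638724 estimated counts. General mesenchymal genes were abundant in every library (CPM, counts scaled to library size with TMM factors). Pdgfra, the receptor that defines fibroblast-like progenitors, and the sialomucin gene Cd34 were lowest in EWAT and highest in NWAT, without overlap. Pdgfra held 1174 to 1233 CPM in SWAT, 936 to 1165 in EWAT and 1420 to 1443 in NWAT. Cd34 held 1322 to 1527 CPM in SWAT, 1227 to 1307 in EWAT and 1632 to 1672 in NWAT. In the same list of 8 genes, Dcn was highest in EWAT (15142 CPM) and Col1a1 in SWAT (28255 CPM). In EWAT against NWAT, 4 of the 8 were lower and 2 higher at an edgeR adjusted p under 0.05 (14.0% and 13.3% of all genes). In SWAT against NWAT, 4 were higher and none lower (9.07% and 9.83%). In SWAT against EWAT, 3 were higher and 2 lower (18.0% and 18.7%). The list thus did not share the order of Pdgfra and Cd34. Its sum was 40653 to 43563 CPM in SWAT, 23541 to 25224.5 CPM in EWAT and 20482 to 20747 CPM in NWAT. The pan-endothelial genes Pecam1 and Cdh5 stood at no more than 8.63 CPM, and the T-cell gene list summed to no more than 2.13 CPM in any library. NWAT replicate 2 held more globin transcripts than the others, with 83.6 CPM of Hba-a1 against 3.04 to 8.75 CPM in the other 5 libraries. In bulk samples, fewer interstitial progenitors and less marker RNA per cell cannot be told apart.

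The markers were highest in perirenal stem cells and, for most, lowest in epididymal ones. Summed over the 8 genes, they came to 4116 and 3612 CPM in SWAT, 2131 and 2139 CPM in EWAT and 7431 and 6153 CPM in NWAT. The NWAT libraries thus lay above all others and the EWAT libraries below all others. The share of all counts taken by the 8 genes was 0.367% and 0.332% in SWAT, 0.224% and 0.231% in EWAT and 0.772% and 0.633% in NWAT. A call means a Benjamini-Hochberg adjusted p under 0.05, over all 13694 genes tested, from edgeR's quasi-likelihood test. When all depots were tested at once, 8 of 8 markers were called, against 41.7% of all genes. A list of 9 endothelial genes summed to 249.9 to 286 CPM in SWAT, 204 to 236 CPM in EWAT and 349 to 369 CPM in NWAT, with none of the 9 at 0. Most of that sum was the angiopoietin receptor gene Tek, with 334 to 355 CPM in NWAT, and the other members did not share its order. In SWAT against NWAT, 4 of 9 were called higher (9.07% of all genes) and 1, Tek, lower (9.83%). In EWAT against NWAT, 2 of 9 were called higher (13.3%) and 1, Tek, lower (14.0%). A list of 11 macrophage genes was highest where the marker sum was lowest, at 19.4 to 28.7 CPM in SWAT, 44.5 to 45.5 CPM in EWAT and 25.6 to 27.6 CPM in NWAT, with none of the 11 at 0. Of these, 6 were called lower in SWAT than in EWAT (18.7% of all genes) and 7 higher in EWAT than in NWAT (13.3%). The part of either list in the marker differences was not tested.

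**Figure D1:**
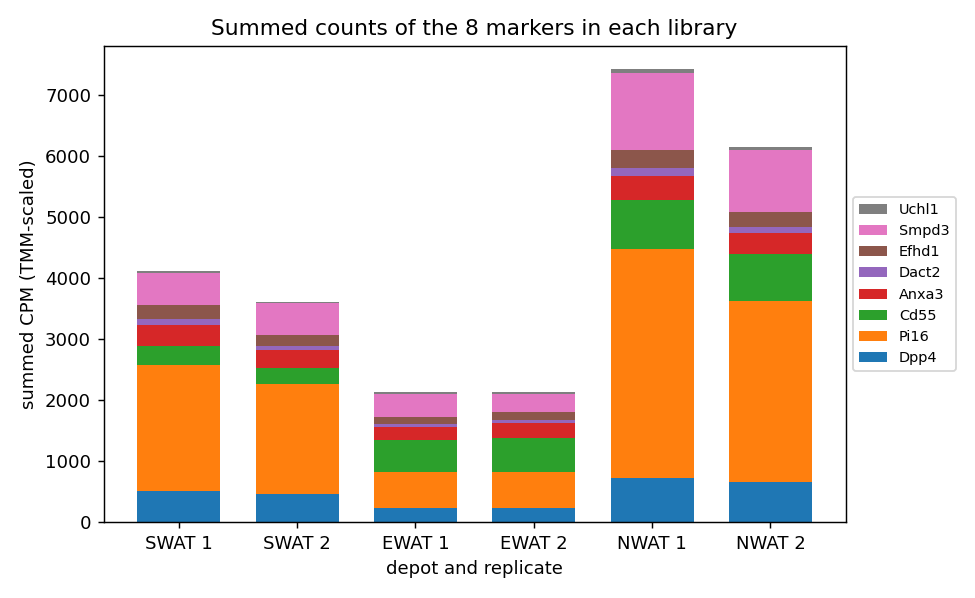
Summed TMM-scaled CPM of the 8 markers (y axis) in each of the 6 libraries (x axis), with each colour standing for 1 gene. The SWAT bars reach 4116 and 3612 CPM, the EWAT bars 2131 and 2139 and the NWAT bars 7431 and 6153, and Pi16 takes the largest slice of every bar.

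Between EWAT and NWAT, where 27.3% of all genes were called, 8 of 8 markers were called lower in EWAT (14.0% of all genes) and none higher (13.3%). The median log2 fold change was -1.10 over the markers and 0.01 over all genes tested. Between SWAT and NWAT, where 18.9% of all genes were called, 6 of 8 were called lower in SWAT (9.83% of all genes) and none higher (9.07%), with a median of -0.65 against -0.02 over all genes. Anxa3 and Efhd1 were not called in that pair. Between SWAT and EWAT, 7 of 8 were called, against 36.7% of all genes, and 6 of these were higher in SWAT, against 18.0%. On log2 (FPKM + 1) values, limma called 4 in that pair, 3 of them higher in SWAT, where 6068 of all 13694 genes were called. Cd55 was called lower in SWAT, where 18.7% of all genes were lower, and Uchl1 was not called. The median was 0.57 in that pair, against -0.01 over all genes.

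In single libraries, 8 of 8 markers had both EWAT values below both NWAT values (32.2% of all genes), and 8 of 8 had both SWAT values below both NWAT values (32.9%), so that both NWAT libraries lay above the other 4 for 8 of 8 (14.1%). Both SWAT values lay above both EWAT values for 6 markers (33.9% of all genes) and below them for 1 (36.1%). These 3 comparisons share libraries and are not independent. Dpp4, Pi16, Cd55, Dact2, Smpd3 and Uchl1 were called higher in NWAT than in each of the other depots, a pattern held by 3.42% of all genes. Dpp4, Pi16, Anxa3, Dact2, Efhd1 and Smpd3 were called lower in EWAT than in each of the others, a pattern held by 8.57% of all genes. Cd55 alone was called lower in SWAT than in each of the others (5.88% of all genes). The NWAT and EWAT patterns were chosen after the values were seen, so their shares are no chance rate for a rule set in advance. The first count fell to 3 without NWAT replicate 1. The second was 3 on FPKM values (fragments per kilobase of gene length, scaled to library size by the authors), whose scaling moved the median log2 fold change of all genes by -0.22 in SWAT against EWAT.

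**Figure D2:**
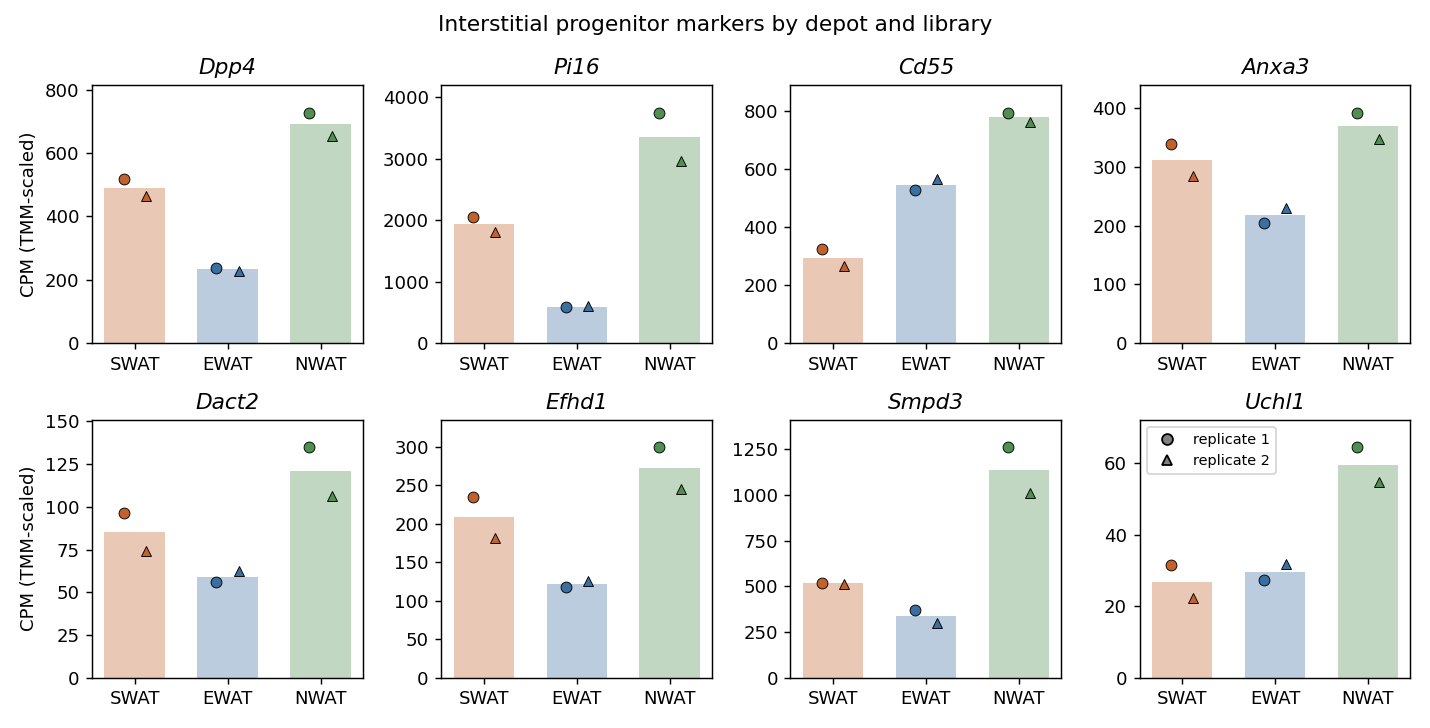
TMM-scaled CPM (y axes, from 0) of each marker by depot (x axes). Bars are means of 2 libraries, circles are replicate 1 and triangles replicate 2. In every panel both NWAT libraries lie above the other 4, and the order of SWAT and EWAT is turned round for Cd55 and undecided for Uchl1.

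The promoters of Dpp4 and Pi16, the genes with the widest range among the surface and secreted markers, are set beside those of Cd55, whose order of depots differed, and Uchl1, which did not separate SWAT from EWAT. They are RefSeq sequences of GRCm38.p6 from 250 bases before to 50 after 1 transcript start per gene, 5′ to 3′ on the gene's strand, with capitals at any match on either strand to the TATA box TATAAA, the CCAAT-box core CCAAT, the GC box GGGCGG, the AP-1 motif TGANTCA, the E-box CACGTG or the TEAD motif GGAATG. No matches overlapped in these 4 sequences. That start lies inside the gene's outer bound, by 2265 bases for Cd55, 86 for Pi16 and 84 for Dpp4, and at the bound for Uchl1, so other transcripts of the first 3 begin further upstream. Dpp4 is read from chr2:62412182-62412481 (minus strand), Pi16 from chr17:29318632-29318931 (plus), Cd55 from chr1:130462695-130462994 (minus) and Uchl1 from chr5:66675871-66676170 (plus).
Dpp4: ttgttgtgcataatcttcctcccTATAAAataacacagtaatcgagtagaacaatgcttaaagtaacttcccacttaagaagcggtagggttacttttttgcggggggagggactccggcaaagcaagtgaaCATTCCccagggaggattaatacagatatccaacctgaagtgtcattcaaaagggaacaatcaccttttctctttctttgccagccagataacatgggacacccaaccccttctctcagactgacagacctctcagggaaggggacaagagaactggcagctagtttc
Pi16: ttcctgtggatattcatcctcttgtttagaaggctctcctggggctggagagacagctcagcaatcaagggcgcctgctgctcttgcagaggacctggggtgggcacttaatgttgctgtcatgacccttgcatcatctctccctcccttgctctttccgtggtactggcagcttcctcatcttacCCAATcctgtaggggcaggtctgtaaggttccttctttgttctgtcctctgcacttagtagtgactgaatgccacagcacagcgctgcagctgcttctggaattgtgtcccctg
Cd55: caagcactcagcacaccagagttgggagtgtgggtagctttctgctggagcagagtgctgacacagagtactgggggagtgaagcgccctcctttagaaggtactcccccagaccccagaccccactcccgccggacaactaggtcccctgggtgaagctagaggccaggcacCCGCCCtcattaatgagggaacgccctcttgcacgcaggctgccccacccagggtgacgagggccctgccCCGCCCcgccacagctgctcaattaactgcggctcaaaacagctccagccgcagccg
Uchl1: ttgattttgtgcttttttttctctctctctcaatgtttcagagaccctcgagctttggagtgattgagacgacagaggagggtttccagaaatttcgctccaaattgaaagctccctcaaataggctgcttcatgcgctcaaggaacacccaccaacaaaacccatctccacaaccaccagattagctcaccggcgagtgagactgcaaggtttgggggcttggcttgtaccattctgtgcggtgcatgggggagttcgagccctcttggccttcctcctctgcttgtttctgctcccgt

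Of the 8 genes, 6 had a promoter entry, namely these 4, Efhd1 and Dact2. They shared little composition. GC content was 45.3% for Dpp4, 53.3% for Pi16, 63.3% for Cd55 and 50.7% for Uchl1, against a median of 52.7% over 27025 genes. The number of CpG dinucleotides was 4 for Dpp4 and 3 for Pi16, and 24 for Efhd1 and 23 for Dact2, against a median of 7. GGGCGG was found in Cd55, Efhd1 and Dact2 and in 35.9% of all promoters. TATAAA was found in Dpp4 (14.2% of all promoters), GGAATG in Dpp4 (14.6%) and CCAAT in Pi16 (37.9%). TGANTCA (7.93% of all) and CACGTG (7.24%) had no match in the 6 windows.

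Dpp4 and Pi16 were lowest in EWAT and highest in NWAT. Dpp4 stood at 517 and 464 CPM in SWAT, 238 and 227 CPM in EWAT and 728 and 654 CPM in NWAT. No depots overlapped, with EWAT lowest and NWAT highest. Dpp4 was lower in EWAT than in NWAT by a log2 fold change of -1.57 ± 0.12 (SE; edgeR adjusted p = 2.52e-06) and higher in SWAT than in EWAT by 1.08 ± 0.12 (edgeR adjusted p = 2.87e-05). Its difference between SWAT and NWAT was -0.50 ± 0.12 (edgeR adjusted p = 0.0114), and this call was lost without SWAT replicate 2 (-0.42) or NWAT replicate 1 (-0.41).

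Pi16 was the most abundant of the 8 markers in every library. It stood at 2056 and 1804 CPM in SWAT, 587 and 596 CPM in EWAT and 3754 and 2973 CPM in NWAT, again without overlap. The 2 EWAT libraries differed by little, while the NWAT libraries were the farthest apart. Pi16 was lower in EWAT than in NWAT by -2.51 ± 0.15 on the log2 scale (edgeR adjusted p = 3.62e-07), and 2.32% of all genes tested had a larger change in that pair. The gene was higher in SWAT than in EWAT by 1.71 ± 0.14 (edgeR adjusted p = 3.0e-06) and lower in SWAT than in NWAT by -0.80 ± 0.14 (edgeR adjusted p = 0.00173). Within the summed counts of the 8 markers, a quantity that needs no scaling between libraries, Pi16 took 49.95% and 49.96% in SWAT, 27.6% and 27.9% in EWAT and 50.5% and 48.3% in NWAT.

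Cd55, the decay-accelerating factor that takes complement convertases apart on the cell surface, departed from that order. Its values were 323 and 266 CPM in SWAT, 528 and 565 CPM in EWAT and 795 and 762 CPM in NWAT. SWAT was the lowest depot and EWAT lay between, with no overlap. Cd55 was lower in SWAT than in EWAT by -0.89 ± 0.13 (edgeR adjusted p = 2.04e-04) and lower in SWAT than in NWAT by -1.40 ± 0.13 (edgeR adjusted p = 1.31e-05). The difference between EWAT and NWAT was smaller, -0.51 ± 0.12 (edgeR adjusted p = 0.0102), and its call was lost without NWAT replicate 1 (-0.48). Of the summed marker counts, Cd55 took 7.84% and 7.36% in SWAT, 24.8% and 26.4% in EWAT and 10.7% and 12.4% in NWAT. Mesothelial markers also separated SWAT from the other depots. Their summed level was 7.40 and 8.28 CPM at the lowest and highest SWAT library, 218 to 229 CPM in EWAT and 149 to 174 CPM in NWAT. Of 8 tested mesothelial genes, 7 were called lower (18.7% of all genes) and 1 higher (18.0%) in SWAT than in EWAT. In SWAT against NWAT, 7 were called lower (9.83%). Upk1b, Wt1, Bnc1 and Muc16 had 0 counts in SWAT. Most of the sum came from Wt1 and Rspo1, whereas the mesothelial surface gene Msln stood at 1.26 and 1.30 CPM in EWAT and 0.907 and 0.631 CPM in NWAT, and their part in the Cd55 difference was not tested.

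Smpd3 and Uchl1, the intracellular enzymes of the group, were called higher in NWAT than in each other depot, as were Dpp4, Pi16, Cd55 and Dact2. Like Dpp4, Smpd3 was also called lower in EWAT than in each other depot. Smpd3, a neutral sphingomyelinase that makes ceramide and takes part in exosome release, stood at 519 and 515 CPM in SWAT, 372 and 301 CPM in EWAT and 1262 and 1010 CPM in NWAT. NWAT lay far above both other depots. The gene was lower in EWAT than in NWAT by -1.76 ± 0.15 (edgeR adjusted p = 5.11e-06) and lower in SWAT than in NWAT by -1.14 ± 0.14 (edgeR adjusted p = 1.75e-04). The rise in SWAT over EWAT was smaller, 0.62 ± 0.14 (edgeR adjusted p = 0.00574), and was not called on log2 (FPKM + 1) values (0.39).

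Uchl1, a ubiquitin hydrolase best known from neurons, was the least abundant of the 8 by counts. It stood at 31.4 and 22.3 CPM in SWAT, 27.3 and 31.9 CPM in EWAT and 64.4 and 54.8 CPM in NWAT. SWAT and EWAT overlapped, and both lay below NWAT. Uchl1 was lower in SWAT than in NWAT by -1.15 ± 0.16 (edgeR adjusted p = 5.36e-04) and lower in EWAT than in NWAT by -1.01 ± 0.16 (edgeR adjusted p = 8.7e-04). Between SWAT and EWAT the difference was -0.14 ± 0.16 (edgeR adjusted p = 0.529) and turned to 0.088 without SWAT replicate 2. A list of 8 neuronal and glial genes summed to 18.8 to 22.8 CPM in SWAT, 13.9 to 17.0 CPM in EWAT and 11.3 to 12.5 CPM in NWAT, with Elavl4 at 0 counts in EWAT and in NWAT. Most of it was S100b, at 8.06 and 10.5 CPM in SWAT, 3.27 and 3.73 CPM in EWAT and 2.39 and 3.06 CPM in NWAT, and Tubb3, at 6.85 and 6.22 CPM in SWAT, 9.15 and 10.3 CPM in EWAT and 5.87 and 7.71 CPM in NWAT. Their part in the Uchl1 values was not tested.

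**Figure D3:**
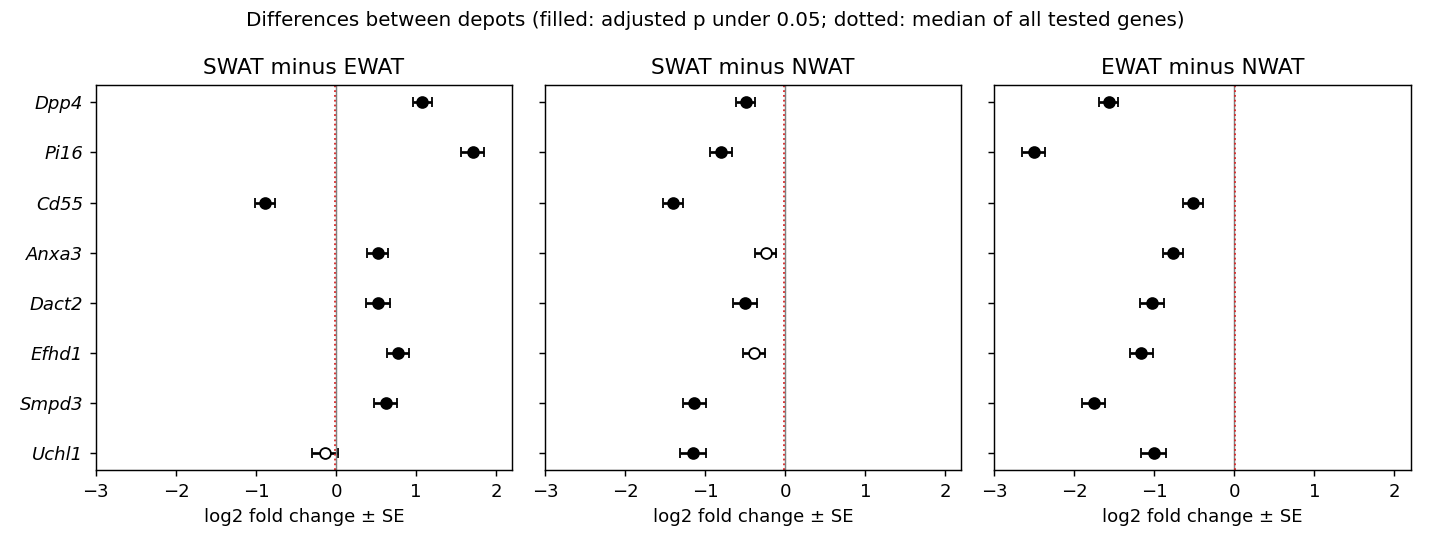
Log2 fold change (x axes) of each marker (y axis) in the 3 pairs of depots, first depot minus second, with SE bars. Filled points passed the adjusted p threshold of 0.05, and the dotted line marks the median of all tested genes. In EWAT minus NWAT all 8 points are filled and negative, from -2.51 for Pi16 to -0.51 for Cd55.

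Anxa3, Dact2 and Efhd1, which act inside the cell as binding or adaptor proteins, were, like Dpp4, lowest in EWAT and highest in NWAT. Anxa3, a calcium-dependent phospholipid-binding annexin, stood at 340 and 285 CPM in SWAT, 205 and 231 CPM in EWAT and 393 and 347 CPM in NWAT. The libraries of SWAT and NWAT lay close together without overlap. On log2 (FPKM + 1) values, SWAT minus NWAT was called (-0.44, limma adjusted p = 0.0497), unlike on the counts. Anxa3 was lower in EWAT than in NWAT by -0.76 ± 0.13 (edgeR adjusted p = 9.95e-04), and its difference between SWAT and NWAT was -0.24 ± 0.13 (edgeR adjusted p = 0.216). It was higher in SWAT than in EWAT by 0.52 ± 0.13 (edgeR adjusted p = 0.00812), a call lost without SWAT replicate 1 (0.39) and on log2 (FPKM + 1) values (0.28).

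Efhd1, a mitochondrial EF-hand calcium-binding protein, stood at 235 and 182 CPM in SWAT, 118 and 126 CPM in EWAT and 299 and 246 CPM in NWAT. EWAT lay clearly below, and the SWAT and NWAT ranges came near each other. The gene was lower in EWAT than in NWAT by -1.16 ± 0.14 (edgeR adjusted p = 1.15e-04) and higher in SWAT than in EWAT by 0.77 ± 0.14 (edgeR adjusted p = 0.00148). The value for SWAT minus NWAT was -0.39 ± 0.14 (edgeR adjusted p = 0.080), called with the replicate block (adjusted p = 0.0498), without SWAT replicate 1 (-0.58) and on FPKM values (-0.58).

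Dact2, a Dapper-family adaptor that binds Dishevelled and tempers Wnt and TGF-beta family signals, stood at 96.6 and 74.0 CPM in SWAT, 55.9 and 62.3 CPM in EWAT and 135 and 107 CPM in NWAT. Its depots did not overlap, but its replicates were far apart in SWAT and NWAT. Dact2 was lower in EWAT than in NWAT by -1.03 ± 0.15 (edgeR adjusted p = 5.03e-04). The other differences of Dact2 were near the threshold. It was higher in SWAT than in EWAT by 0.53 ± 0.15 (edgeR adjusted p = 0.0186), a call lost without SWAT replicate 1 (0.32), EWAT replicate 1 (0.45) or EWAT replicate 2 (0.62) and on log2 (FPKM + 1) values (0.26). It was lower in SWAT than in NWAT by -0.50 ± 0.15 (edgeR adjusted p = 0.0377), a call lost without SWAT replicate 2 (-0.32), NWAT replicate 1 (-0.32) or either EWAT replicate (-0.50 and -0.49), and with only the 2 depots in the fit (-0.50).

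Per gene length, the order of the markers among themselves also changed between depots. Pi16 led in each, at 784 ± 56.3 FPKM in SWAT, 283 ± 7.99 FPKM in EWAT and 1562 ± 266 FPKM in NWAT (SD, n = 2), which placed it at rank 47 in SWAT, 242 in EWAT and 16 in NWAT among all symbols. Cd55 stood second in EWAT (196 FPKM) and NWAT (266 FPKM) but below Anxa3, Efhd1 and Dpp4 in SWAT, where its 90.7 ± 11.3 FPKM lay within 1 SD of Dpp4 (96.7 FPKM) and Smpd3 (90.4 FPKM). In NWAT, Anxa3 (242 ± 22.9 FPKM) and Smpd3 (227 ± 37.2 FPKM) differed by less than either SD. Uchl1 and Dact2 were the lowest pair in each depot, from 21.6 to 54.8 FPKM and from 22.9 to 44.9 FPKM.

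The libraries of a depot also differed along these genes. In SWAT replicate 1 was above replicate 2 for 8 of 8 markers, against 52.2% of all genes, with log2 differences of 0.01 to 0.49. In NWAT it was again 8 of 8, against 48.5% of all genes, with differences of 0.06 to 0.34. In EWAT it was 2 of 8, against 49.2%. Of 21 other interstitial genes, replicate 1 was above replicate 2 for 21 in SWAT, 11 in EWAT and 17 in NWAT. Of 15 committed preadipocyte markers it was above for 1 in SWAT, 4 in EWAT and 3 in NWAT. This comparison of libraries was chosen after the values were seen.

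**Figure D4:**
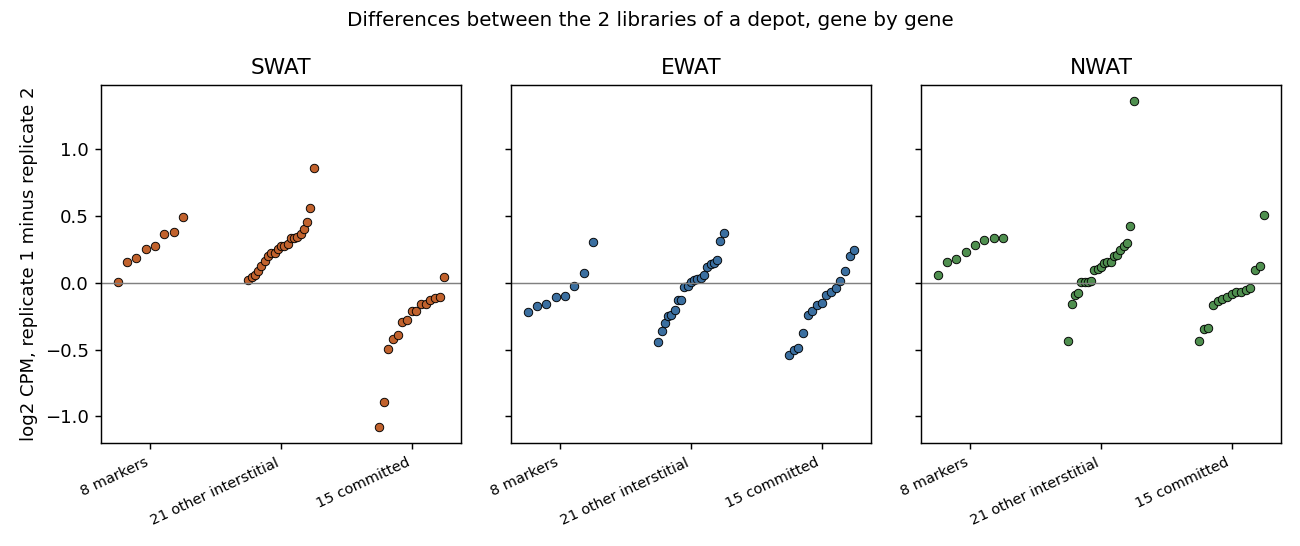
Log2 CPM of replicate 1 minus replicate 2 (y axis) for each gene of 3 lists (x axes) in each depot, with genes sorted within a list. In SWAT and NWAT all 8 markers lie above 0, while 14 of 15 committed preadipocyte markers lie below 0 in SWAT and 12 of 15 in NWAT.

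A list of 21 other interstitial progenitor genes followed the markers in part. Of these, 14 were called lower in EWAT than in NWAT (14.0% of all genes) and none higher (13.3%), with a median of -0.63. Between SWAT and EWAT, 12 were higher (18.0% of all genes) and 2 lower (18.7%) in SWAT, with a median of 0.51. Between SWAT and NWAT, 1 was higher (9.07%) and 9 lower (9.83%), with a median of -0.13. Sema3c, a secreted semaphorin, kept the order of Dpp4, at 409 CPM in SWAT, 288 CPM in EWAT and 898 CPM in NWAT, with log2 fold changes of -1.13 ± 0.11 for SWAT minus NWAT and -1.64 ± 0.12 for EWAT minus NWAT (edgeR adjusted p = 2.86e-05 and 1.4e-06). Wnt2, a Wnt ligand, did not: it was highest in SWAT at 51.4 CPM, where EWAT held 4.12 CPM and NWAT 30.3 CPM. Wnt2 was higher in SWAT than in NWAT by 0.76 ± 0.13 (edgeR adjusted p = 0.00145). Limch1 was lower in SWAT than in NWAT by -1.06 ± 0.16 (edgeR adjusted p = 9.16e-04). Opcml, a cell adhesion protein of the IgLON family, was higher in SWAT than in EWAT by 0.83 ± 0.12 (edgeR adjusted p = 2.41e-04). The fibroblast matrix gene Dpt had close levels in all depots, at 1988 CPM in SWAT, 1997 CPM in EWAT and 1903 CPM in NWAT.

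As a list, committed preadipocyte markers did not share the NWAT peak. By calls, the exception was Dlk1, called higher in NWAT than in each other depot at low levels, no more than 1.91 CPM. Cebpa was not so called, but both its NWAT libraries lay above all others. It held 57.4 to 61.6 CPM in SWAT, 63.1 to 67.0 CPM in EWAT and 70.7 to 73.5 CPM in NWAT. Of 15, 10 were called higher (9.07% of all genes) and 1 lower (9.83%) in SWAT than in NWAT, with a median of 0.75. In EWAT against NWAT, 5 were higher (13.3%) and 1 lower (14.0%), with a median of 0.28, and in SWAT against EWAT, 7 were higher (18.0%) and 4 lower (18.7%), with a median of 0.40. Icam1, the adhesion molecule that names the population, was higher in SWAT than in EWAT by 1.14 ± 0.15 (edgeR adjusted p = 1.57e-04). It was also higher in SWAT than in NWAT, by 0.78 ± 0.15 (edgeR adjusted p = 0.00354). Its value for EWAT minus NWAT was -0.36 ± 0.15 (edgeR adjusted p = 0.101), with both EWAT libraries below both NWAT ones. The basement membrane collagen gene Col15a1 was higher in SWAT than in NWAT by 1.15 ± 0.12 (edgeR adjusted p = 4.83e-05). Of 10 F3-type markers, 4 were higher and 3 lower in SWAT than in NWAT, where 9.07% and 9.83% of all genes were, with a median of 0.28. In EWAT against NWAT, 7 were higher and 2 lower (13.3% and 14.0% of all genes; median 0.95), and in SWAT against EWAT, 4 higher and 5 lower (18.0% and 18.7%; median -0.19).

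**Figure D5:**
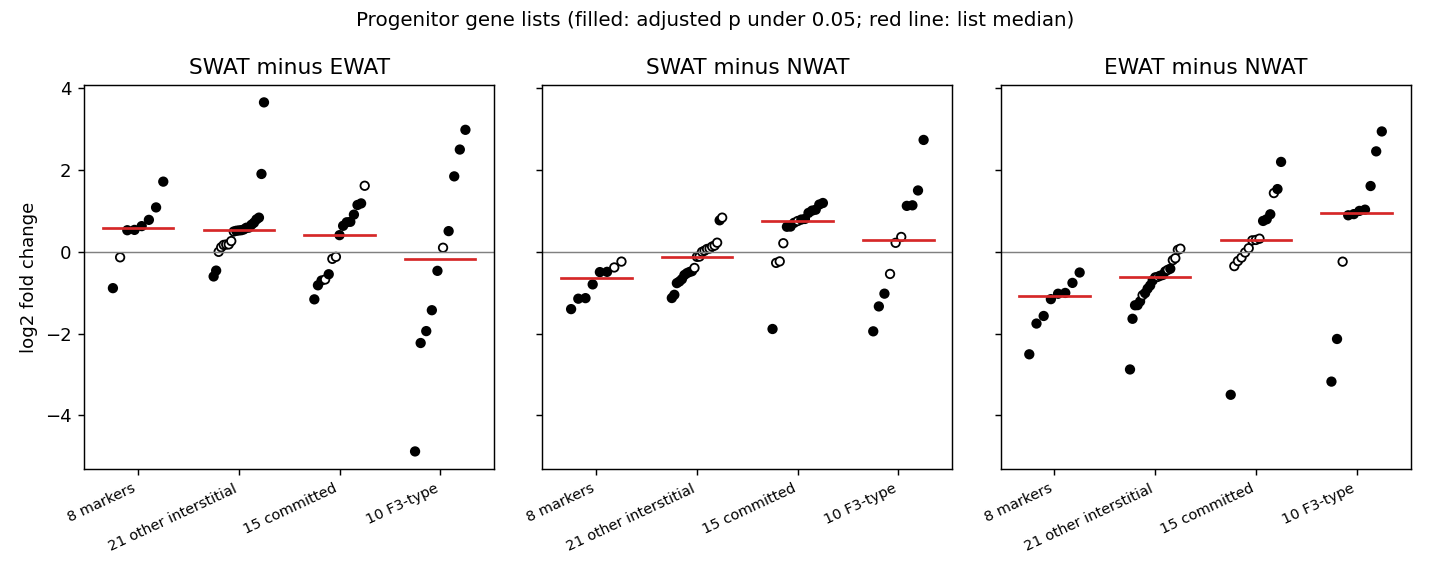
Log2 fold change (y axis) of each tested gene of 4 progenitor lists (x axes) in the 3 pairs of depots, first depot minus second, with filled points past the adjusted p threshold and red lines at list medians. The medians of the 8 markers are 0.57, -0.65 and -1.10, and those of the committed list are 0.40, 0.75 and 0.28.

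The protein relatives of the markers were called about as often as all genes. Of 32 tested relatives, 6 were called higher and 4 lower in EWAT than in NWAT, where 27.3% of all genes were called. In SWAT against NWAT, 4 were higher and 4 lower (18.9% of all genes called), and in SWAT against EWAT, 5 higher and 7 lower (36.7%). Fap, the collagen-degrading peptidase closest to Dpp4 in sequence and its neighbour on chromosome 2 (88620 bases apart), stood at 163 ± 11.5 CPM in SWAT, 81.9 ± 2.88 CPM in EWAT and 119 ± 1.44 CPM in NWAT (SD, n = 2). It shared the low EWAT level but was higher in SWAT than in NWAT, by 0.45 ± 0.10 (edgeR adjusted p = 0.00832). Crispld2, a secreted relative of Pi16, was highest in EWAT, with 26.7 FPKM in SWAT, 108 FPKM in EWAT and 31.3 FPKM in NWAT. It was higher in EWAT than in NWAT by 1.75 ± 0.11 (edgeR adjusted p = 7.77e-07). Crispld1, another relative of Pi16, was lowest in EWAT as Pi16 was, at 30.8 CPM in SWAT, 1.54 CPM in EWAT and 10.4 CPM in NWAT. It was lower in EWAT than in NWAT by -2.76 ± 0.18 (edgeR adjusted p = 9.59e-07) and, unlike Pi16, higher in SWAT than in NWAT, by 1.56 ± 0.14 (edgeR adjusted p = 1.05e-05). Cd55b, the close copy of Cd55 with which it may share reads, held 11.6 CPM in SWAT, 11.2 CPM in EWAT and 16.2 CPM in NWAT, with no call in any pair. Anxa1, the annexin with the highest FPKM of its list, was lower in SWAT than in NWAT by -0.50 ± 0.13 (edgeR adjusted p = 0.0207) and not called in the other pairs. Smpdl3a and Efhd2, the most abundant relatives of Smpd3 and Efhd1 per length, changed by at most 0.37 on the log2 scale in size, with Efhd2 lower in EWAT than in NWAT by -0.37 ± 0.10 (edgeR adjusted p = 0.0161).

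For each marker, the 3 genes of most similar pattern were taken by Pearson's r of log2 CPM over the 6 libraries, from 1124 genes whose log2 CPM averaged 2 or more and whose depot means spanned 1 log2 unit or more. The libraries fall into 3 depots, so high values are common, and r describes likeness only. Most like Dpp4 were Dennd3 (r = 0.999), Slc38a4 (r = 0.999) and Ano3 (r = 0.998), and most like Pi16 were Slc38a4 (r = 0.999), Aif1l (r = 0.998) and Mgll (r = 0.998). Slc38a4, an amino acid transporter gene, stood at 17.0 CPM in SWAT, 4.10 CPM in EWAT and 30.6 CPM in NWAT. Sbsn came first for both Anxa3 and Efhd1 (r = 0.996 for each), and Bmp7 (r = 0.988) and Sema3c (r = 0.991) were among the 3 nearest to Dact2 and Smpd3. Cd55 was most like Pla1a (r = 0.996), a phosphatidylserine phospholipase gene with 338 CPM in SWAT, 598 CPM in EWAT and 749 CPM in NWAT.

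On GRCm38.p6 the 8 protein-coding genes lie on 5 chromosomes. Cd55 (130429798 to 130465009) and Efhd1 (87264353 to 87310841) are on chromosome 1, Dpp4 (62330073 to 62412315) on chromosome 2, Uchl1 (66676121 to 66687234) and Anxa3 (96793385 to 96845968) on chromosome 5, Smpd3 (106252548 to 106337965) on chromosome 8, and Dact2 (14195230 to 14204327) and Pi16 (29318796 to 29328903) on chromosome 17. Each shares exon bases with another annotated gene in GENCODE M21, and with no word on whether reads were counted by strand, reads there cannot be told apart. The shared part is 18.1% of the exon bases for Uchl1 and 11.95% for Efhd1, both with an antisense gene (Uchl1os and Efhd1os), 4.72% for Smpd3 with the coding gene Prmt7, and 2.10% to 3.67% for the others.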

How the data were processed

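Per the file headers, the authors' first table holds estimated counts by gene symbol, not normalized and with 31.7% to 33.1% of them not whole; the second holds the authors' FPKM for the same symbols, scaled by gene length and library size. The submitters' processing notes list GRCm38.p6, Seurat and Cell Ranger with no role. The sources used here give no aligner, counter or strandedness. Both files have 2 columns that match no label, and these were not used. The other 6 were matched by depot letter and replicate number.

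Estimated counts were rounded, filtered with filterByExpr by depot (count minimum 10, total minimum 15) and tested in edgeR 4.0.16 (R 4.3.3) with TMM scaling and a robust quasi-likelihood model of 1 coefficient per depot, leaving 3 residual degrees of freedom, and Benjamini-Hochberg adjustment over all genes. Standard errors are the absolute log2 fold change over the square root of F. The markers and lists were chosen with earlier results of these data known, and the script was tested on simulated data. From other progenitor lists, the called genes with the largest changes and a mean log2 CPM of at least 2 could be named, at most 3 per direction and pair. Cd55b, Crispld1, Dpt, Dlk1, Cebpa, Dcn and Col1a1 were picked after their values were seen. Same-numbered replicates had deviations correlated at 0.00055 to 0.110 between depots over all genes. This cannot show whether they were paired, since a shared effect may touch few genes. The main fit took no pairing. Alternatives were DESeq2 1.42.0, RLE size factors, other filters, limma 3.58.1 on log2 FPKM, a replicate block, fits of 2 depots and leaving out each library.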

Additional observations from a re-analysis of the deposited data

How the results depend on the processing

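Over 14 alternatives, each of the 24 marker differences was recomputed, and 311 of 336 values kept their direction and side of the threshold, 18 lost a call and 6 gained one. The single change of direction was Uchl1 in SWAT against EWAT, 0.088 without SWAT replicate 2, in a range of -0.41 to 0.088 without 1 library; the cause was not tested. On log2 (FPKM + 1) and log2 (FPKM + 0.1) values alike, limma called 4 of 8 markers in SWAT against EWAT, against 7 from the counts. Of these, 3 were higher in SWAT, against 6, and 6068 and 6142 of all genes were called. The markers lower in EWAT than in each other depot were 3, against 6. In SWAT against NWAT, limma called 8 lower, against 6, with 3462 and 3559 of all genes called. The markers higher in NWAT than in each other depot were 8, against 6. On log2 (FPKM + 1) values, 20.1% of calls over all genes were higher in SWAT than in EWAT and 20.5% higher in SWAT than in NWAT, against 49.1% and 48.0% from the counts, and median log2 fold changes moved by -0.22 and -0.17. Leaving out 1 library gave 3085 to 5672 calls over all genes in SWAT against EWAT, 1467 to 3323 in SWAT against NWAT and 2129 to 4884 in EWAT against NWAT, where all 6 libraries gave 5020, 2588 and 3743. The markers higher in NWAT than in each other depot were 3 to 7 without 1 library. These last counts, and those lower in EWAT than in each other depot, were chosen after seeing the data. With the replicate block, 7 markers were called in each of SWAT against EWAT and SWAT against NWAT and 8 in EWAT against NWAT. Over all 13694 genes, the block gave 5043, 2595 and 3793 calls in these pairs, in that order. Efhd1 in SWAT against NWAT was the only marker call it changed. The numbers of samples, 2 per depot, limit what small differences such as that of Anxa3 between SWAT and NWAT can show.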
